A study of Mus musculus with 10 samples.

Results

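Among 47264 regions of the mouse genome that carried an H3K27me3 peak in any of 5 lymphoma lines, 670 had a peak in the parental, R100, R500 and R1000 lines and none in R4000, the most resistant line. These regions were chosen by presence or absence in the peak lists of all 5 lines, so their absence in R4000 is a description and not a finding. Duplicate entries of each list were dropped, overlapping peaks of the 5 lists were joined into union regions, and a line counted as present where it had any peak in a region.

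All 5 lines share the Eμ-Myc and Cdkn2a-/- genotype on a C57BL/6J background. The parental line was grown from a B-cell lymphoma, and R100, R500, R1000 and R4000 are sub-clones taken from it during escalation of mafosfamide, an alkylating agent, at 100, 500, 1000 and 4000 nM. Chromatin was taken from cells grown without the drug and precipitated with an antibody to H3K27me3, and each line is represented by 1 peak list. A list gives the position of each peak on a grid of 50 bp of mm9 and no height, count or p-value, so the depth of the libraries is unknown, no difference between lines could be tested, and intervals given below (95% Wilson) cover only the counting of regions or genes. The antibody, the Eμ-Myc transgene, which drives Myc in the B lineage, and the absence of Cdkn2a are common to every line.

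H3K27me3 is the trimethyl mark that the Ezh2 subunit of Polycomb repressive complex 2 (PRC2) places on histone H3. In mammals the mark is densest at CpG-rich promoters of developmental regulators that a cell type does not use, such as homeobox genes in B cells, where it forms domains of several kilobases around the transcription start site (TSS). It is diluted at each round of replication unless it is copied, and it is removed by the demethylases Kdm6a and Kdm6b.

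To show what kind of DNA the regions hold, the middle 200 bp of the 4 most broadly covered of them are printed from the plus strand of mm9 (NCBIM37), with every CG dinucleotide in capitals because CpG density is the sequence feature most closely tied to Polycomb marking. They were ranked by the smallest length that peaks covered in any of the 4 lines. The first, chr5:98611901-98612100, comes from a region in Prdm8. The second, chr7:52430351-52430550, comes from a region in Slc17a7. The third, chr17:36342776-36342975, comes from a region that holds the start of the pseudogene Gm8835 in the major histocompatibility complex near H2-T3. The fourth, chr3:87764026-87764225, lies between genes, with Nes as the nearest.
Prdm8: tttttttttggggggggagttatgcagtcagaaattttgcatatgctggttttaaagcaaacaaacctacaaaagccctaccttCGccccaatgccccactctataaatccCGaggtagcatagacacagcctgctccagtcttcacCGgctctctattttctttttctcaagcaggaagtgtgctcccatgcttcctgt
Slc17a7: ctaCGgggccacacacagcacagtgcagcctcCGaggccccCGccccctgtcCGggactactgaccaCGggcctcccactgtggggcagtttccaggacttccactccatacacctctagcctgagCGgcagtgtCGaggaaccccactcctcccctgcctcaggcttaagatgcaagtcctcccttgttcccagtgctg
Gm8835: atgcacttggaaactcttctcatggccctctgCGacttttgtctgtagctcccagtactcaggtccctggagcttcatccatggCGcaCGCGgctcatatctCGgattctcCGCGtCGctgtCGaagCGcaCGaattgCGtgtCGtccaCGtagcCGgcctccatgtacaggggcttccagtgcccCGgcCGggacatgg
Nes: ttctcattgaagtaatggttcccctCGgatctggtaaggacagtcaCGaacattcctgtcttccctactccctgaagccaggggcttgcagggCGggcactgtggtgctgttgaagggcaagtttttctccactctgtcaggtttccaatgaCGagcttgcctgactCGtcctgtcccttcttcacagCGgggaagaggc
The stretch at Gm8835 held 17 CG dinucleotides, against 3 at Prdm8, 7 in Slc17a7 and 6 near Nes. Their GC content was 46.0%, 64.0%, 60% and 54.5% in the order printed. Broad coverage was thus found at CpG contents that differed widely.

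The region in Prdm8, a histone methyltransferase-family regulator of neural genes, had the largest covered length. On chromosome 5 from 98611201 to 98612800, peaks spanned 1300, 1000, 1100 and 1150 bp of it in the order parental, R100, R500 and R1000, the order kept for all lengths that follow, and 0 bp in R4000. It lies 1313 bp from the Prdm8 TSS with 221 exonic bp, and an R4000 peak stood 400 bp beyond its edge. R4000 thus kept a peak next to the region. The region in Slc17a7, which encodes a vesicular glutamate transporter, lies on chromosome 7 from 52429851 to 52431050 with 930 of its bases in exons. It was covered over 750, 1100, 1100 and 650 bp, and the nearest R4000 peak was 1600 bp away. At Gm8835, on chromosome 17 from 36342301 to 36343450, the lengths were 600, 950, 1150 and 650 bp in the same order, with the nearest R4000 peak 18.45 kb away. Class I genes of this complex are close copies of each other, so reads may be shared between them. Near Nes, which encodes the intermediate filament nestin, the region on chromosome 3 from 87763401 to 87764850 was covered over 550, 850, 1450 and 850 bp and lay 9.25 kb from an R4000 peak.

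A further 3 of the 12 most broadly covered regions contained the TSS of a protein-coding gene and had no R4000 peak for more than 100 kb. The region at Stx3, a syntaxin of membrane fusion, lies on chromosome 19 from 11893401 to 11894600, with 493 of its bases in exons. Peaks spanned 550, 1200, 1000 and 600 bp, and the nearest R4000 peak was 608 kb away. The region at Wdr63, a dynein intermediate chain of cilia, lies on chromosome 3 from 145770151 to 145771450, with 218 exonic bp. Its covered lengths were 900, 1100, 600 and 550 bp, and the distance to R4000 was 112 kb. At Klhl23, of the Kelch family, the region on chromosome 2 from 69659751 to 69660750 was covered over 500, 1000, 700 and 500 bp, with the nearest R4000 peak 1.38 Mb away. At these promoters R4000 kept no peak in the neighbourhood, in contrast to Prdm8.

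The other 5 were near homeobox genes, which encode DNA-binding regulators of body pattern and cell identity, and an R4000 peak stood within 1 kb of each. Near Hlx, 13548 bp from its TSS, the region was covered over 900, 1100, 1300 and 500 bp. Near Hoxb8 it was covered over 500, 1050, 1250 and 500 bp. In Lhx9, 15603 bp from the TSS, it was covered over 550, 500, 1000 and 550 bp, and an R4000 peak began 50 bp beyond it. In Onecut3 and Barhl2 the parental lengths were 600 and 500 bp, the R1000 lengths were 450 bp each, and the R4000 peaks stood 350 and 650 bp away. R100 or R500 had the longest coverage at 11 of the 12 regions, and Prdm8 was the exception.

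**Figure D1:**
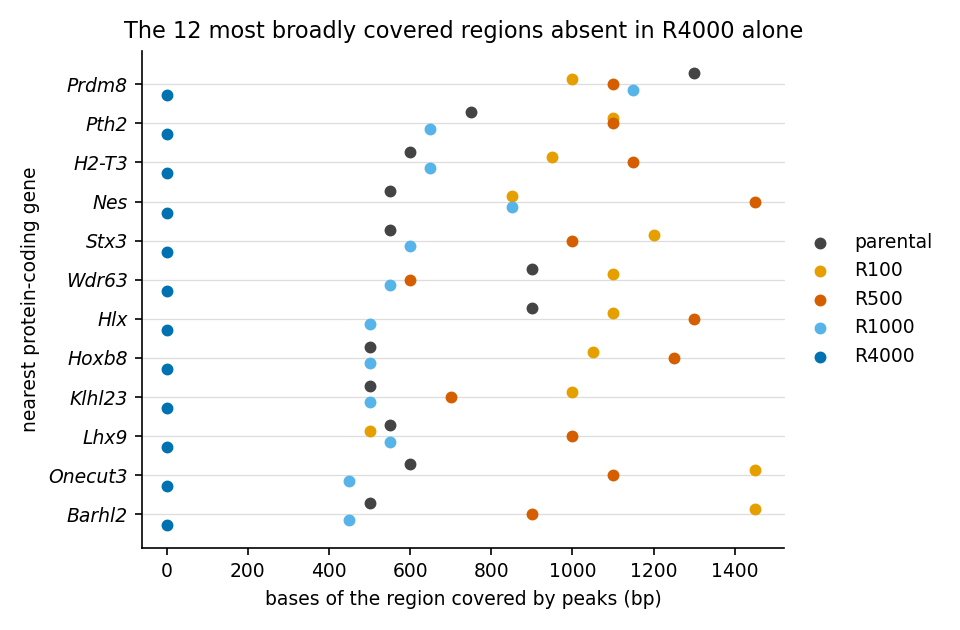
Bases covered by peaks (bp, x axis) in each of the 5 lines for the 12 regions with the largest smallest-covered length, named by their nearest protein-coding gene. R4000 is at 0 in each by the choice of regions, and the parental points lie between 500 and 1300 bp.

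Over all 670 regions, peaks covered a median of 150 bp for the parental line (quartiles 100 and 250 bp), 350 bp for R100 (200 and 600 bp), 350 bp for R500 (200 and 550 bp) and 150 bp for R1000 (100 and 250 bp). The R1000 line covered more bases than the parental line in 282 regions, fewer in 273 and as many in 115. R100 covered more than the parental line in 503 of the 670 (75.1%). R1000 covered fewer bases than R500 in 518 regions (77.3%). Coverage was thus longer in R100 and R500 than in the parental line and R1000, whose medians were equal. In the 1678 regions with a peak in all 5 lines, the medians were 300, 800, 800 and 400 bp, with 250 bp in R4000. The regions absent in R4000 alone were narrower, with a median width of 550 bp against 1000 bp. The choice of regions itself favours this, since R4000 peaks add to the width of the regions in all 5 lines. The widths are therefore a description. Only a single 50-bp bin was covered in the parental line at 112 of them (16.7%), against 5.78% of the regions in all 5 lines.

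The regions with a peak in the parental, R100, R500 and R1000 lines numbered 2348, and R4000 lacked a peak in 670 of them, or 28.5% (95% CI 26.7 to 30.4%). They make up 1.42% of all 47264 regions. Of the 9433 regions with a parental peak, whatever the other lines held, R4000 lacked 77.6%, so regions held by the 3 intermediate lines as well were less often absent. The same count was made for each line in turn. R1000 alone was missing at 242 of 1920 regions, which is 12.6% (95% CI 11.2 to 14.2%). The parental line alone was missing at 22.1% of 2154 regions, R100 at 2.16% of 1715 and R500 at 0.827% of 1692. This order followed the number of peaks only in part, since R4000 had 6820 peaks, R1000 9595, the parental line 10778, R500 21888 and R100 25180. When the 6820 widest peaks of every line were used, R4000 was missing at 306 of 1700 regions (18%, 95% CI 16.2 to 19.9%) and the parental line at 376 of 1770 (21.2%, 95% CI 19.4 to 23.2%). R4000 was then no longer the line most often missing alone. Among peaks at least 500 bp wide it was so again, at 97 of 252 regions (38.5%) against 63 of 218 for the parental line (28.9%). There a line counted as missing when it had no peak that wide, so a narrower R4000 peak could remain. With all R4000 peaks counted, R4000 lacked 10 of the 439 regions covered over at least 500 bp in each of the 4 other lines. The 6820 widest R4000 peaks cover 1.07 Mb, against 1.43 Mb in the parental line and 3.40 Mb in R100. The part of list length and peak width in the counts was not tested further.

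**Figure D2:**
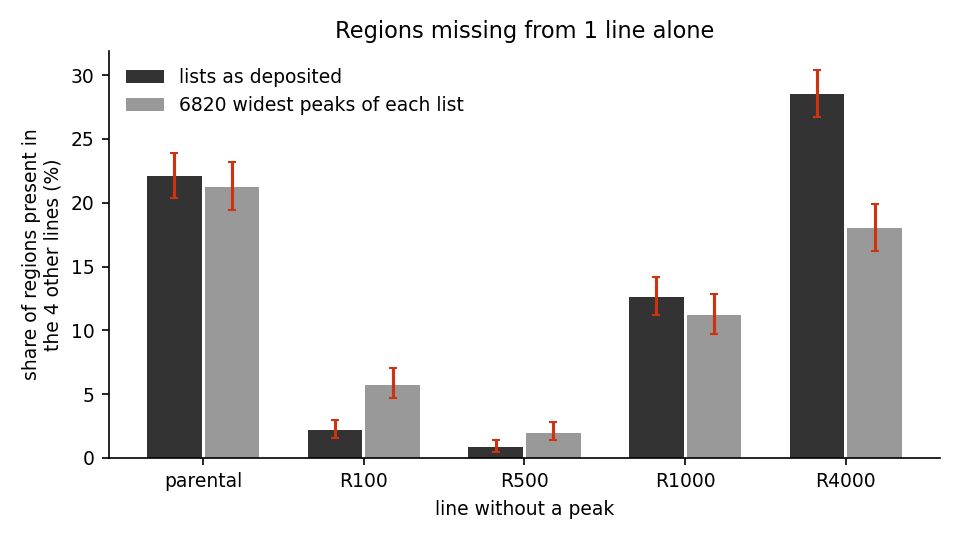
Share of the regions present in the 4 other lines (%, y axis) at which each line alone had no peak, for the lists as deposited and for the 6820 widest peaks of each list, with 95% Wilson intervals. R4000 has the tallest bar in the lists as deposited (28.5%), and the parental line has the tallest bar in lists of equal number (21.2%).

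Absence in R4000 went with short coverage in the other lines. The choice of regions by absence in R4000 itself favours narrow ones, so the shares are a description. Where the smallest covered length over the 4 lines was 50 bp, R4000 lacked 56.5% of 391 regions. The share was 43.0% at 100 bp, 29.7% at 150 to 200 bp, 12.8% at 250 to 450 bp and 2.28% of 439 regions (95% CI 1.24 to 4.14%) at 500 bp or more. With R1000 as the missing line the share also fell with covered length, from 30.6% at 50 bp to 0.313% at 500 bp or more. The values of parental length alone behaved alike, from 53.6% of regions with 50 parental bp to 7.26% of those with at least 500. At the edge of the rule, 65 of the 670 regions had an R4000 peak within 150 bp outside them, and 147 of the 1678 regions in all 5 lines had no more than 50 bp covered in R4000. The parental median was 200 bp in each of these groups, and the R1000 median was 100 bp in the former and 200 bp in the latter.

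**Figure D3:**
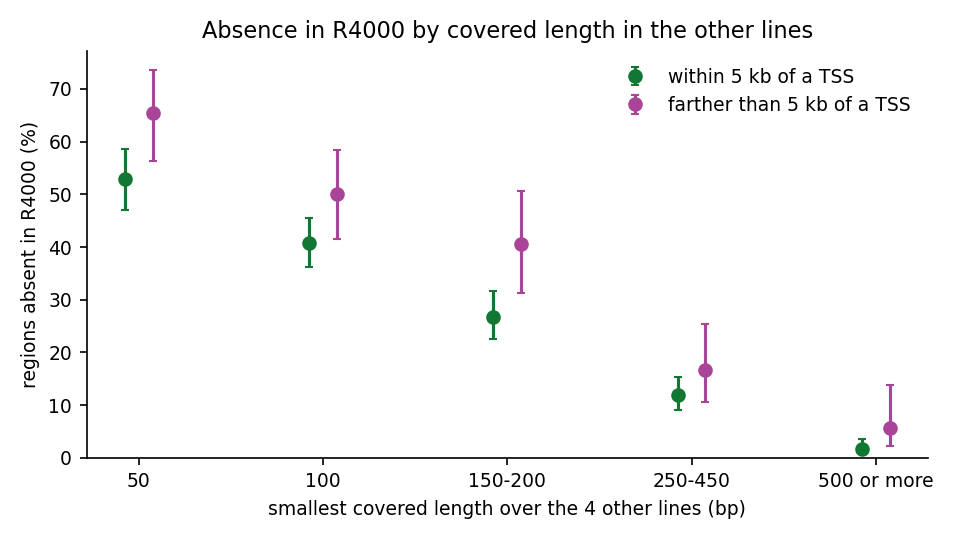
Share of regions absent in R4000 (%, y axis) among those present in the 4 other lines, by the smallest covered length over those lines (bp, x axis), within 5 kb and farther than 5 kb from a TSS, with 95% Wilson intervals. Within 5 kb the share goes from 52.9% at 50 bp to 1.63% at 500 bp or more, and it is higher in each bin away from a TSS.

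The nearest R4000 peak lay at a median distance of 0.95 kb from a region, with quartiles of 0.4 and 9.51 kb and a largest distance of 7.03 Mb. Within 1 kb there was an R4000 peak for 343 regions (51.2%, 95% CI 47.4 to 55%), and within 5 kb for 479 (71.5%, 95% CI 68.0 to 74.8%). For comparison, 81.8% of the 242 regions absent in R1000 alone (95% CI 76.5 to 86.2%) had an R1000 peak within 5 kb, in a list with more peaks. Among all 47264 regions, 42.4% had an R4000 peak within 5 kb, and the median distance was 11750 bp. All regions include 5592 that hold an R4000 peak themselves. When regions no more than 5 kb apart were chained, 342 of the 670 (51.0%) were in a chain with a region kept in all 5 lines. In contrast, 168 (25.1%, 95% CI 21.9 to 28.5%) were in chains where R4000 had no peak at all. The share with an R4000 peak within 5 kb depended on the peaks used. It was 24.7% of the 97 regions found from peaks of at least 500 bp, where only the 353 R4000 peaks of that width counted. It was 18.7% of the 481 found after peaks within 1000 bp were joined, a step that takes up near R4000 peaks. Around the centres, at distances of 1 to 5 kb, R4000 peaks covered 3.85% of positions on average, against 6.24% in the parental line, 6.02% in R1000 and 14.3% in R100. Around the regions in all 5 lines the corresponding values were 6.00%, 8.56%, 8.54% and 17.9%.

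**Figure D4:**
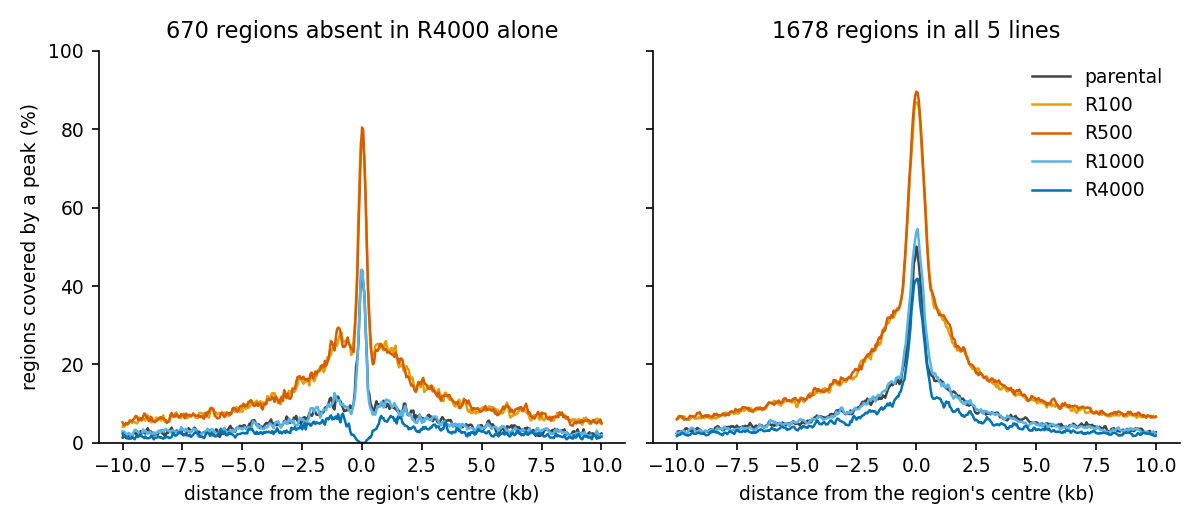
Share of regions covered by a peak (%, y axis) at each distance from the region's centre (kb, x axis) in the 5 lines, for the 670 regions absent in R4000 alone and the 1678 regions in all 5 lines. At the centre the parental and R1000 lines reach 43.9% and 44.2% in the first group, where R4000 is at 0 by the choice of regions and rises on both sides.

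The chain with the most of these regions was the Hoxc cluster on chromosome 15, from 102737451 to 102900650, which held 10 of the regions beside 28 kept in all 5 lines. Of the 81 chains with at least 2 of the regions, 4 had no R4000 peak. Those at Cyp1a1 and Zswim6 held 3 each. At Cyp1a1, 2 of the 3 adjoin without a gap and were kept apart because only overlapping peaks were joined. Cyp1a1 encodes a cytochrome P450 that is induced by aryl hydrocarbons. Its widest region, on chromosome 9 from 57543801 to 57545200, was covered over 100, 1350, 1000 and 300 bp, and the nearest R4000 peak was 68.7 kb away. At Zswim6, which encodes a zinc-finger protein, the widest region was covered over 250, 1250, 750 and 150 bp, with R4000 323 kb away. In the 2 other regions at each gene the parental line covered between 50 and 200 bp.

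Of the 670 regions, 472 lay within 5 kb of a TSS (70.4%, 95% CI 66.9 to 73.8%) and 351 within 2 kb (52.4%). Among regions in all 5 lines 81.7% were within 5 kb (95% CI 79.8 to 83.5%), and among all 47264 regions 53.8% were. A TSS lay inside the region in 7.76%, against 22.6% of the regions in all 5 lines, which were also wider, and 2.24% of all regions. Exons of protein-coding genes were overlapped by 197 regions (29.4%), 191 lay within such genes without touching an exon (28.5%), and 282 lay outside them (42.1%). In regions kept in all 5 lines, 51.2% overlapped an exon and 16.2% lay within a gene without one. The regions absent in R1000 alone were distributed much like those absent in R4000 alone, with 65.7% within 5 kb of a TSS (95% CI 59.5 to 71.4%) and 28.5% on exons. Of all 47264 regions, 18.4% overlapped an exon and 48.3% lay outside these genes. The regions absent in R4000 alone thus stood between the regions in all 5 lines and regions in general. Of the 2348 regions present in the 4 lines, R4000 lacked 25.6% of those within 5 kb of a TSS (95% CI 23.7 to 27.7%) and 39.2% of those farther away (95% CI 35.0 to 43.5%). The share was higher away from a TSS in each of the 5 bins of covered length, with overlapping intervals in each bin.

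In the 500 bp around the centre, the median GC content was 52.2% (quartiles 48.0 and 57.6%) and the median ratio of observed to expected CpG was 0.424. In regions kept in all 5 lines these medians were 55.6% and 0.577, in those absent in R1000 alone 53.2% and 0.412, and in all regions 50% and 0.287. A window was called CpG-rich where GC was over 50% and the ratio over 0.6. This held for 174 of the 670 regions (26.0%, 95% CI 22.8 to 29.4%), 41.7% of those in all 5 lines and 18.3% of all regions. R4000 lacked 19.9% of the CpG-rich regions present in the 4 other lines (95% CI 17.4 to 22.7%) and 33.6% of the others (95% CI 31.3 to 36.1%). The difference had the same direction in each bin of covered length, and the intervals were separate at 150 to 200 bp (20.6% against 34.9%) and at 250 to 450 bp (7.33% against 16.1%) and overlapped in the 3 other bins. Of the 670 regions, 210 shared a chain with another of them. The intervals do not take this into account, and the difference was not tested.

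Motifs of factors named in the study were searched on both strands of the same windows. The E-box CAGGTG, a site of E2a, was present in 35.4% of the 670 regions (95% CI 31.8 to 39.1%), 36.8% of the regions in all 5 lines and 35.4% of all 47264. The E-box CAGCTG was present in 22.7%, 25% and 26.3% of them, and CACGTG, the E-box that Myc binds, in 7.76%, 8.82% and 8.30%. GAGGAA, the core of the PU.1 site, was present in 39.9%, 39.7% and 42.2%. The windows differ in base composition, and within CpG-rich windows CAGGTG was present in 36.8%, 34.7% and 35.6%. In the stretches printed above, the only match to these motifs was GAGGAA in Slc17a7.

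Of 22225 protein-coding gene symbols, 447 had a region absent in R4000 alone within 5 kb of the TSS, which is 2.01%. Of these 447 genes, 193 (43.2%) also had a region kept in all 5 lines within 5 kb. R4000 had no peak within 5 kb of any annotated start of 139 (31.1%, 95% CI 27 to 35.5%). No share over all genes stands beside this value, so it is only a description. The 132 regions near these 139 genes had median covered lengths of 100, 400, 375 and 150 bp, and their nearest R4000 peak was at a median of 94.4 kb. The genes were then grouped by 12 lists of symbols.

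Homeobox and other developmental regulators had the regions most often. Of 39 Hox genes, which set position along the body axis, 15 had a region within 5 kb (38.5%, 95% CI 24.9 to 54.1%), among them Hoxb8, Hoxc9 and Hoxd13. A region kept in all 5 lines lay near 23 Hox genes, and none of the 15 was without an R4000 peak within 5 kb. The region near Hoxc12, on chromosome 15 from 102763401 to 102765050, was covered over 250, 950, 1450 and 550 bp. Near Hoxc9 the lengths were 200, 500, 250 and 400 bp. Of 155 other homeobox genes, 32 had a region (20.6%, 95% CI 15 to 27.7%), and 3 of them, Emx1, Pax8 and Satb1, had no R4000 peak within 5 kb. Coverage was only 50 bp in the parental line at Emx1 and in R1000 at Pax8. At Barhl2, a regulator of neurons in the brain and retina, a second region on chromosome 5 from 106887701 to 106888600 was covered over 400, 850, 850 and 300 bp. Among 188 other developmental transcription factors, 27 had a region (14.4%, 95% CI 10.1 to 20.1%). At Neurog1, a proneural factor, the region holds the TSS on chromosome 13 from 56352451 to 56353750, and it was covered over 300, 1150, 850 and 400 bp with an R4000 peak 950 bp away. In the gene of Sall3, a zinc-finger factor, the lengths were 400, 600, 400 and 250 bp. In this list Ascl2 and Scrt2 had no R4000 peak within 5 kb, and Scrt2 was covered over only 50 bp in the parental line. These shares are set beside those of regions kept in all 5 lines, which were 59.0%, 33.5% and 28.2% for the 3 lists against 4.57% of all genes. The high shares of developmental regulators were thus common to lost and kept regions.

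Satb1, a chromatin organiser of lymphocytes, had the third most distant R4000 peak among regions covered over at least 150 bp in each of the 4 lines. Its region, on chromosome 17 from 51970451 to 51971750, was covered over 400, 1100, 1300 and 150 bp. It lies 865 bp from the TSS with 213 exonic bp, and the R4000 peak was 3.42 Mb away. The most distant was at Trim36, which encodes a ubiquitin ligase, on chromosome 18 from 46371251 to 46372550. It was covered over 250, 1300, 750 and 150 bp, with R4000 7.03 Mb away. At Kctd1, in second place on the same chromosome, the lengths were 200, 550, 500 and 300 bp and the distance was 4.39 Mb. How the number of R4000 peaks on a chromosome bears on these distances was not tested.

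Of 169 signalling ligands, receptors and antagonists, 12 had a region (7.10%, 95% CI 4.11 to 12%), and 35 had a region kept in all 5 lines (20.7%). The region at the TSS of Wnt3, a Wnt ligand, lies on chromosome 11 from 103634051 to 103635950. It was covered over 400, 1700, 1000 and 800 bp, with R4000 300 bp away. At Fgf11 the lengths were 200, 1550, 1000 and 300 bp. Efna4, an ephrin ligand, had 150, 850, 850 and 150 bp and the nearest R4000 peak 13.75 kb away, and Efna4, Efna2 and Ihh had none within 5 kb of a start. Of 257 ion channels and neurotransmitter receptors, 13 had a region (5.06%), and 17 had a region kept in all 5 lines (6.61%). The region in Trpm8, the cold-sensing channel, was covered over 600, 400, 500 and 500 bp, and that in Cacnb3 over 400, 450, 400 and 300 bp. In Chrna5 the lengths were 250, 250, 400 and 350 bp. R4000 had no peak within 5 kb of a start of 5 of the 13, namely Adra2b, Cacnb2, Kcna2, Kcns1 and Trpm4. The region near Trpm4 nevertheless had an R4000 peak 1.1 kb away. Coverage was only 50 bp in the parental line at Adra2b, Kcna2 and Kcns1, and in R1000 at Cacnb2. Celsr2 alone among 66 cadherins and protocadherins had a region, covered over 200, 200, 300 and 50 bp.

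For regions absent in R4000 alone, lists of B-cell, chromatin and cell-cycle genes were near the 2.01% of all genes, with 1 or 2 genes each. That of other blood lineages was higher. Regions kept in all 5 lines lay near 6.25% of the B-cell list, 16.7% of the Polycomb list and 12.4% of the cell-cycle list, against 4.57% of all genes. Among 48 B-cell factors and markers, only Bcl6, the repressor of germinal-centre B cells, had a region (2.08%). It lies on chromosome 16 from 23987801 to 23988000 in the gene and was covered over 200, 150, 100 and 200 bp with an R4000 peak 300 bp away. Of 39 factors and markers of other blood lineages, 4 had a region (10.3%, 95% CI 4.06 to 23.6%), and 5 had a region kept in all 5 lines (12.8%). Of the 4, Hoxa9 is also counted among the Hox genes and Gata3 among the other developmental transcription factors. That at Gata3, a T-cell regulator, also overlaps 9230102O04Rik and was covered over 900, 850, 1200 and 150 bp. At Tcf7, another T-cell factor, the lengths were 200, 800, 300 and 150 bp, and near Hoxa9 they were 350, 400, 450 and 100 bp. The remaining gene was Flt3. Among 30 Polycomb subunits and H3K27 demethylases, Cbx2 alone had a region (3.33%), with 400, 300, 450 and 100 bp. Of 89 genes of the cell cycle, p53 and apoptosis, Ccnd2 and Myc had one (2.25%). In Ccnd2, cyclin D2, the lengths were 250, 400, 800 and 300 bp. In Myc the region lies on chromosome 15 from 61820701 to 61821550, 3755 bp downstream of the start and with 650 exonic bp. It was covered over 250, 700, 750 and 50 bp, with an R4000 peak 400 bp away, and a region in all 5 lines also lay within 5 kb of the TSS. Reads of the transgene and of the endogenous Myc gene were not told apart. No such region lay within 5 kb of the TSS of Tcf3, Spi1, Suz12, Mtf2, Ezh2, Uty, Id2 or Cdkn2a, and the last is deleted in these lines. Uty lies on chromosome Y, where the R500, R1000 and R4000 lists hold no peak, so it could not have such a region.

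Genes of drug handling were near the 2.01% of all genes. Those of the ribosome had a lower share, with an interval that includes 2.01%. Of 107 genes of alkylator detoxification and DNA repair, 2 had a region (1.87%, 95% CI 0.514 to 6.56%), and 4 had a region kept in all 5 lines (3.74%). At Aldh5a1 the lengths were 150, 250, 350 and 100 bp, and near Gsto1, a glutathione transferase, they were 200, 100, 200 and 100 bp with no R4000 peak within 273 kb. Of 159 ribosomal protein genes, Rpl36 alone had a region absent in R4000 (0.629%, 95% CI 0.111 to 3.48%). By contrast, 24 had a region kept in all 5 lines (15.1%, against 4.57% of all genes). At Rpl36 the lengths were 50, 450, 100 and 100 bp, and the nearest R4000 peak was 15.7 kb away.

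**Figure D5:**
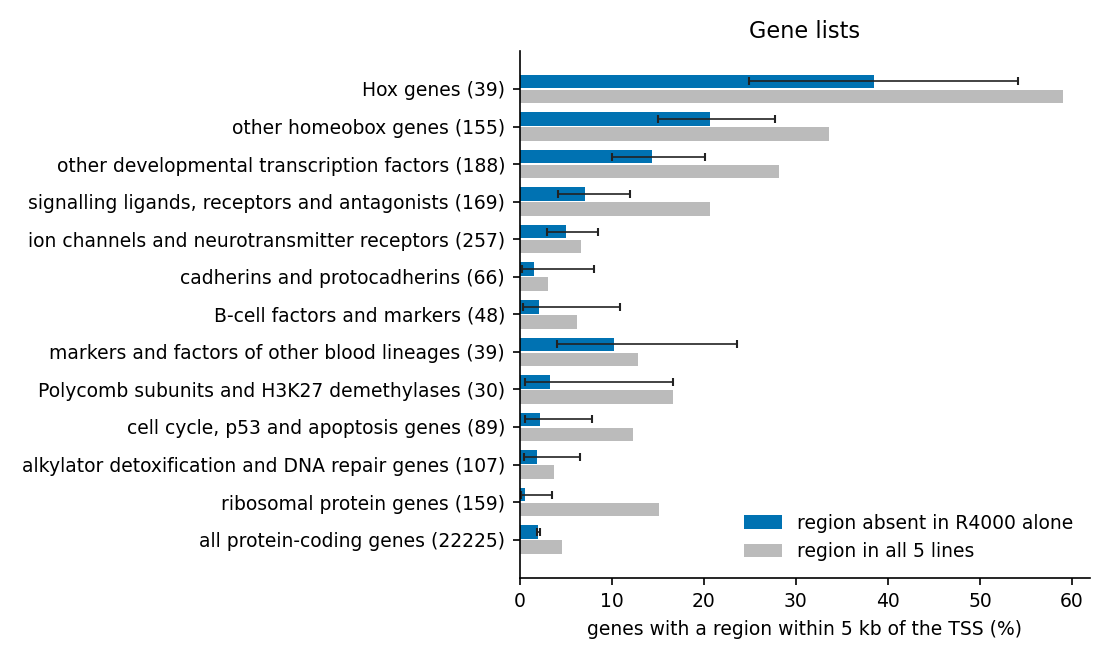
Share of the genes of each list (%, x axis; number of genes in brackets) with a region absent in R4000 alone (blue, with 95% Wilson intervals) or a region in all 5 lines (grey) within 5 kb of the TSS. Hox genes stand at 38.5% and 59.0%, all protein-coding genes at 2.01% and 4.57%, and ribosomal protein genes at 0.629% and 15.1%.

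The regions lay on each autosome and on X. Of the regions present in the 4 other lines, R4000 lacked between 18.8% on chromosome 1 (39 of 208, 95% CI 14 to 24.6%) and 39.2% on chromosomes 13 and 18 (38 of 97 and 20 of 51). On chromosome X it lacked 5 of 8. Chromosome 2 held the most, 67, and chromosome 11 held 57. The intervals of chromosomes 1 and 4 lay below the share of 28.5% over all chromosomes and those of chromosomes 5, 13 and X above it, and with 20 chromosomes looked at this was not tested.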

How the data were processed

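H3K27me3 ChIP-seq peaks of 5 lines were analysed, with 1 list per line. RRBS samples were not analysed here. The authors called peaks with Poisson statistics, setting windows of immunoprecipitated reads against the input. The submitters' processing notes name Bowtie and mm9. Versions, the threshold of the lists and the pooling of replicates are not given in the sources used here. The deposited values are peak starts and ends in base pairs (1-based), with no count, and each peak stood 2 times in the lists of R100 and R500.

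Peak ends fell within NCBIM37 chromosome lengths. Genes were those of GENCODE vM1 on chromosomes 1 to 19, X and Y (37273 genes), with the 5′ end as the TSS. Lists were matched by symbol, older symbols through RefSeq synonyms. Overlaps were computed in Python 3.11.15 (numpy 2.4.6, pandas 2.3.3), sequence was read with pysam 0.24.0 and intervals came from scipy 1.17.1. On simulated peak lists, the joining of peaks gave 0 of 473 regions that differed from a direct count of bases.

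The members and gene lists were chosen with earlier results of these data known. Named regions were the 12 with the largest smallest-covered length over the 4 lines, up to 3 per gene list by the same measure, the 3 farthest from R4000 among those with at least 150 bp in each line, and genes of the study. Genes without any R4000 peak, Cyp1a1, Zswim6, Hoxd13 and Flt3 were named after their values were seen. No test was run, since each line has 1 list. Alternatives were peaks of at least 100 or 500 bp in every line, lists of equal number, peaks within 1000 bp joined and autosomes only. Others were presence from 150 bp in the 4 lines other than R4000, protein-coding TSS, and distances of 2 kb to a TSS or 1 kb to R4000.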

Additional observations from a re-analysis of the deposited data

How the results depend on the processing

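The number of regions absent in R4000 alone was 670. It was 97 with peaks of at least 500 bp and 306 with the widest peaks in lists of equal number. Where presence in the 4 other lines needed 150 bp it was 210, and any R4000 peak still counted as presence. The number stayed within 1.5 times the main number in the 3 other settings. The share of regions that R4000 lacked was 28.5%. It was 38.5% with peaks of at least 500 bp, where narrower R4000 peaks did not count, and 18% in lists of equal number. It was 23.4% with peaks within 1000 bp joined and 15% where presence in the 4 other lines needed 150 bp. The share within 5 kb of a TSS was 70.4%, against 86.6% with peaks of at least 500 bp, 65.7% for protein-coding TSS and 52.4% for a distance of 2 kb. An R4000 peak lay within 5 kb of 71.5%, and of 62.4% and 24.7% when only peaks of at least 100 and 500 bp counted. It was 18.7% with peaks joined, a step that itself takes up near R4000 peaks, and 51.2% at a distance of 1 kb. The parental median of 150 bp became 200 bp with peaks of at least 100 bp, 700 bp with peaks of at least 500 bp, 200 bp in lists of equal number, 100 bp with peaks joined and 250 bp where presence needed 150 bp. Of 33 values recomputed, 14 stayed near the main value, meaning within 1.5 times for the number of regions, within the counting interval for a share and at 150 bp for the median. No paired analysis was possible because each line has 1 list and no test was run. The unknown depth limits each count, and the cause of the shifts was not tested.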
